A study of Mus musculus with 16 samples.

Results

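The genes described here act in the G1 phase of the cell cycle and are 10 of the 24411 genes in the deposited tables. They were taken by symbol, as a set of G1 regulators: the D-type cyclins Ccnd1, Ccnd2 and Ccnd3, the kinases Cdk4 and Cdk6, the kinase inhibitors Cdkn1b (p27), Cdkn1c (p57) and Cdkn2c (p18), the retinoblastoma gene Rb1 and the transcription factor E2f1. All 10 passed the filter on low counts, which kept 16665 genes. In GRCm38, Ccnd1 lies at chr7:144929931-144939925, Ccnd2 at chr6:127125162-127152193, Ccnd3 at chr17:47505051-47599691, Cdkn1b at chr6:134920401-134925513, Cdkn1c at chr7:143458339-143461050, Cdkn2c at chr4:109660876-109667189, Rb1 at chr14:73183673-73325822 and E2f1 at chr2:154559407-154569892.

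RNA-Seq of 16 mouse samples was used, which were 12 celiac ganglia (spelled Coelic in the labels) of 2-week-old mice and 4 tumors, in 5 groups. Ganglia without the MYCN transgene came from mice with wild-type Runx1t1 (free wild-type ganglia, n = 4) or from mice labelled heterozygous for an inactivated Runx1t1 allele (free ganglia labelled het, n = 3). Ganglia of MYCN homozygotes likewise came from mice with wild-type Runx1t1 (MYCN wild-type ganglia, n = 3) or from mice labelled heterozygous (MYCN ganglia labelled het, n = 2). The 4 tumors came from MYCN homozygotes with wild-type Runx1t1, and their age is not given in the labels. The transgene, Tg(Th-MYCN)41Waw on a 129/SvJ background, places human MYCN under the tyrosine hydroxylase (Th) promoter, so that it is active in sympathetic and related neuroectodermal cells and drives neuroblastoma. The Runx1t1 allele is the insertional knockout Runx1t1tm1Fc, which was brought in from another strain background, and no homozygous knockout was profiled. The human transgene has no row in a table of mouse genes. Every library is labelled with the cell type neuroblastoma, ganglia included, so tissue was taken from the titles.

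A cell commits to divide late in G1. D-type cyclins, which are made in response to growth signals, bind Cdk4 or Cdk6 and start to phosphorylate the Rb protein, and cyclin E with Cdk2 completes it. Rb then lets go of E2F factors such as E2f1, which switch on the genes of DNA replication and some of their own regulators. Proteins of the Ink4 family such as p18 bind Cdk4 and Cdk6 alone, whereas p27 and p57 bind cyclin-kinase complexes more widely and are known for holding neurons and other resting cells out of the cycle. Cyclin D1 is known for high expression in neuroblastoma, and MYC family proteins bind the E-box sequence CACGTG.

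Levels are given as deposited TPM, which is scaled per transcript length and to the same total in every library, so that genes can be set side by side. Fold changes and tests come from edgeR's quasi-likelihood test on the deposited expected counts, normalised by TMM and fitted over all 5 groups, with p-values adjusted over all 16665 genes and a threshold of 0.05. CPM is the count scaled to library size after TMM, not per length. The labels do not say whether samples of a group came from separate litters or days, so the p-values measure the spread between these samples.

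Some libraries stood apart. Depth ran from 10692299 to 38618757 counts. It was under 20000000 in 6 ganglia, both MYCN ganglia labelled het among them, and over it in every tumor. The summed TPM of 5 B lymphocyte markers was 665 in replicate 2 of the free wild-type ganglia and at most 6.99 elsewhere, and its T lymphocyte and thymocyte markers (367 TPM) and myeloid markers (1962 TPM) were also the highest of all libraries. Liver markers summed to 5835 TPM in tumor replicate 3, while the other 3 tumors had 1.41 to 65.1 TPM and free ganglia 7.37 to 258 TPM. Replicate 1 of the MYCN wild-type ganglia had the lowest glial (3691 TPM), fibroblast (888 TPM) and endothelial (34 TPM) sums of all ganglia. Ribosomal RNA (Rn45s) took 8.57 to 12.8% of counts in tumors, 8.8% in that ganglion and 2.15 to 5.64% in the other ganglia, and its part in the tumor results was not tested. The sympathetic genes Th and Dbh, which encode enzymes of noradrenaline synthesis, were detected in every library. In tumors against free ganglia, 7 of 8 glial, 6 of 6 fibroblast, 4 of 6 endothelial, 5 of 6 adrenal cortex and 7 of 10 sympathetic neuron markers were lower, and 2 of 10 sympathetic neuron, 2 of 6 myeloid and 4 of 4 liver markers were higher, where 30.9% of all genes were lower and 30.6% higher. This went with summed glial TPM of 907 to 3970 in tumors and 4400 to 7530 in free ganglia. The part of these markers' cells in the results below was not tested, and fewer cells of a type cannot be told apart from less RNA per cell. Runx1t1 itself did not separate the labels: it was at 2.78 to 4.41 TPM in free wild-type ganglia and 4.36 to 6.28 in those labelled het, and at 7.9 to 70.3 TPM in MYCN wild-type ganglia and 8.83 and 16.9 in those labelled het.

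The sequence upstream of Cdk4 is shown because Cdk4 and Cdk6, which share their cyclin partners, moved in opposite directions, and because the transgene encodes a factor of the E-box binding family. RefSeq promoter windows (GRCm38.p6) were at hand for 6 of the 10 members. Only the 250 bases before the start site were searched, for CACGTG, which reads the same on both strands, and for the E2F sequences TTTCGCGC, TTTGGCGC, TTTCCCGC and TTTGCCGC on both strands. Cdk4 lies at chr10:127063534-127067920 on the plus strand, and the bases before its annotated exon, chr10:127063285-127063533, plus strand, with each CACGTG in capitals, were as follows.
Cdk4: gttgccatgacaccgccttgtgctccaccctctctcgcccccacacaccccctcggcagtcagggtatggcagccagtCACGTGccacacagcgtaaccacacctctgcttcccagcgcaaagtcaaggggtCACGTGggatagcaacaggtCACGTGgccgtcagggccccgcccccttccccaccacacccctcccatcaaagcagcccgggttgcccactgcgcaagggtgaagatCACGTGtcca
The 4 matches begin at positions −172, −118, −98 and −11 from the RefSeq start site. At least 1 match was found in 1978 of 32851 such windows (6.02%), and at least 4 in 7 windows of 5 genes (0.0213%). Cdk6, at chr5:3341485-3531008 on the plus strand, had a single match, which begins at position −220 from the RefSeq start site and is shown with its surroundings, chr5:3343661-3343690, plus strand.
Cdk6: gttctgcggcccCACGTGggtgaacccccg
By the gene annotation this stretch lies within an exon of Cdk6, as do most of its window and all of that of E2f1 and of 1 of the 2 windows of Cdkn2c, since annotated transcripts start further upstream than the RefSeq start site used. The windows of E2f1, Cdkn1b, Cdkn2c and Ccnd3 held no CACGTG, and no member's window held one of the E2F sequences, which were in 611 of the 32851 windows (1.86%). A match is a run of letters and was not tested as a binding site, and no match says nothing about the factor.

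Of the 10 members, 7 differed between the 4 tumors and the 7 free ganglia, where 61.4% of all genes tested were called. Ccnd1, Cdk4, Cdkn1b, Cdkn2c and E2f1 were higher in tumors, Ccnd2 and Cdk6 were lower, and Ccnd3, Cdkn1c and Rb1 did not pass. The share of members called is close to that of all genes, so what follows concerns which genes moved and by how much. The plot of TPM by library shows every value.

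**Figure D1:**
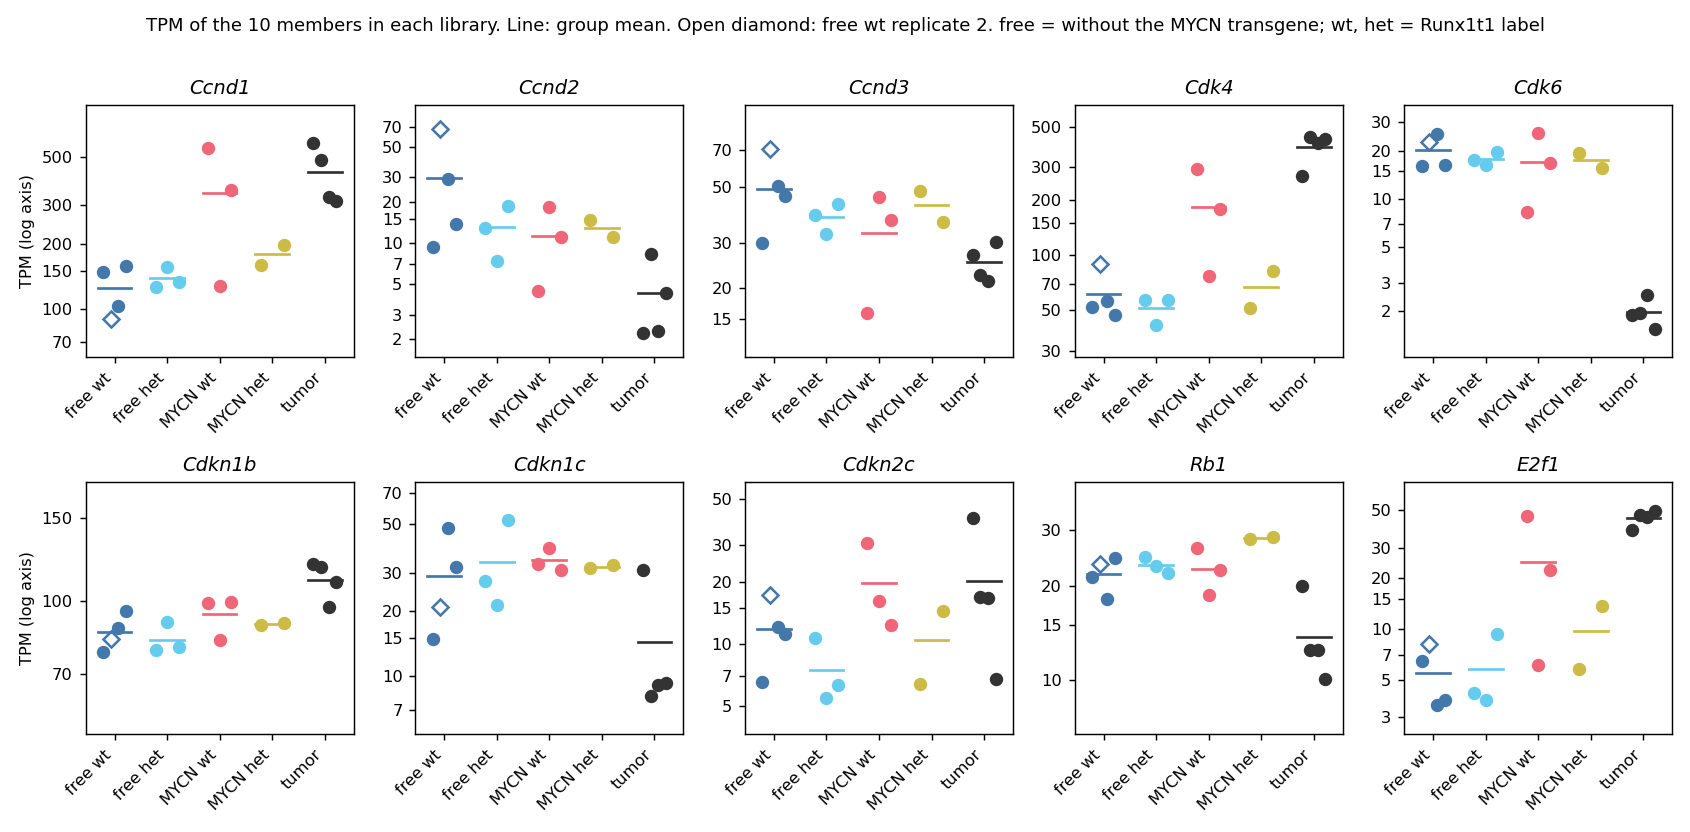
TPM of each of the 10 members (log axis) in each of the 16 libraries by group, with a line at the group mean and an open diamond for replicate 2 of the free wild-type ganglia. Tumors lie above all free ganglia for Ccnd1, Cdk4, Cdkn1b and E2f1 and below them for Cdk6, and the MYCN wild-type ganglia are spread widely for Ccnd1, Cdk4 and E2f1.

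Among the D-type cyclins, Ccnd1 was the main one in ganglia and rose further in tumors. Its level was 584, 485, 330 and 314 TPM in tumor replicates 1 to 4. In free ganglia it was 148, 89.4, 103 and 158 TPM in replicates 1 to 4 with wild-type Runx1t1 and 126, 157 and 133 TPM in replicates 1, 3 and 4 labelled het. All tumors were above all free ganglia, 4.42-fold on the count scale (log2 fold change 2.14, SE 0.32, edgeR adjusted p = 5.98e-05). MYCN wild-type ganglia had 552, 127 and 353 TPM in replicates 1, 3 and 4, and MYCN ganglia labelled het had 160 and 197 TPM. In TPM, replicates 1 and 4 of the MYCN wild-type ganglia were therefore within the tumor range, and replicate 3 within the range of free ganglia. In CPM, replicate 4 (523.1) was below all tumors, the lowest of which was at 645.2.

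Ccnd2, a cyclin prominent in lymphocytes and in neural progenitors, went the other way. It was at 2.20, 8.35, 2.28 and 4.33 TPM in tumors. Free wild-type ganglia had 9.29, 67.8, 29.0 and 13.9 TPM and free ganglia labelled het 12.96, 7.37 and 18.7 TPM. The highest value, 67.8 TPM, was that of replicate 2, the library with the lymphocyte markers, whose part in it was not tested. Tumors and free ganglia overlapped at their edges, and the log2 fold change was −1.78 (SE 0.60, edgeR adjusted p = 0.019). Without that ganglion it was −1.33 (edgeR adjusted p = 0.0294). The call was lost without tumor replicate 1 or without tumor replicate 3 (log2 fold change −1.56 each, edgeR adjusted p = 0.0569 and 0.056). In MYCN ganglia Ccnd2 lay between 4.49 and 18.3 TPM.

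Ccnd3 was at 21.2 to 30.3 TPM in tumors and at 30.1 to 70.5 TPM in free ganglia, with the top again in replicate 2 of the free wild-type ganglia. The difference in normalised counts was −0.35 (log2, SE 0.26, edgeR adjusted p = 0.268). Ccnd3 was the only member whose expected counts were fractional, in all 16 libraries, so some of its reads were shared out with other features. It also overlaps Bysl on the opposite strand.

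The G1 kinases moved in opposite directions. Cdk4 was at 268, 439, 409 and 430 TPM in tumors. It was at 52.1, 89.9, 56.2 and 47.0 TPM in free wild-type ganglia and 56.9, 41.5 and 57.0 TPM in free ganglia labelled het. The groups did not overlap, and Cdk4 was 9.3-fold higher in tumors (log2 fold change 3.22, SE 0.33, edgeR adjusted p = 2.91e-06). Among free ganglia the highest Cdk4 was that of replicate 2 with its lymphocyte markers, and the log2 fold change without it was 3.37. MYCN wild-type ganglia had 293, 77.0 and 179 TPM in replicates 1, 3 and 4, and those labelled het had 51.7 and 82.3 TPM. Cdk4 overlaps the gene Tspan31 on the opposite strand, and whether counting used the strand is not stated.

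Cdk6, the other kinase of the D-type cyclins, was below Cdk4 in every library and was lower in tumors. It was at 1.90, 1.95, 2.51 and 1.54 TPM in tumors. Free wild-type ganglia had 15.9, 22.6, 25.4 and 16.3 TPM and free ganglia labelled het 17.4, 16.2 and 19.7 TPM. Every tumor was below every ganglion, and Cdk6 was 7.11-fold lower in tumors than in free ganglia (log2 fold change −2.83, SE 0.28, edgeR adjusted p = 2.54e-06). MYCN wild-type ganglia had 8.31, 25.7 and 16.7 TPM and those labelled het 19.3 and 15.7 TPM, so that replicate 1 of the MYCN wild-type ganglia had the lowest Cdk6 of all ganglia.

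Of the inhibitors, Cdkn1b was the most abundant in every library and was higher in tumors, although p27 is a brake on the cycle. It was at 120, 118, 96.9 and 110 TPM in tumors. In free ganglia the lowest, median and highest levels were 78.0, 83.2 and 95.1 TPM. Groups did not overlap, with a narrow gap, and the change on the count scale was 1.78-fold (log2 fold change 0.84, SE 0.11, edgeR adjusted p = 1.81e-05). MYCN ganglia had 98.9, 82.5 and 99.7 TPM with wild-type Runx1t1 and 89.1 and 89.7 TPM when labelled het.

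Cdkn1c, an imprinted gene, was at 30.7, 8.12, 9.17 and 9.34 TPM in tumors and at 14.9 to 52.5 TPM in free ganglia. Tumor replicate 1 was within the ganglion range while the other 3 tumors were below all ganglia. The log2 fold change was −0.68 (SE 0.41, edgeR adjusted p = 0.165), and without tumor replicate 1 it was −1.37 (edgeR adjusted p = 0.00409). MYCN ganglia had 30.9 to 39.1 TPM, a narrower range than that of free ganglia.

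Cdkn2c, which encodes p18, was at 40.7, 16.9, 16.7 and 6.80 TPM in tumors and at 5.50 to 17.2 TPM in free ganglia. In TPM only tumor replicate 1 lay above all free ganglia, whereas in CPM 3 of the 4 tumors did (40.7, 17.5, 16.1 and 6.68 CPM against at most 13.96 CPM). The log2 fold change was 1.69 (SE 0.49, edgeR adjusted p = 0.00795), but without that tumor it was 1.10 (edgeR adjusted p = 0.0606). With a term for sex, read from the Y-linked gene Ddx3y, it was 1.39 (edgeR adjusted p = 0.0596). Sex was spread unevenly between tumors and ganglia. Ddx3y was at 41.5 to 52.1 CPM in tumor replicates 1 to 3 and at 0 in replicate 4. Among ganglia it was at 66.9 CPM in free wild-type replicate 2, 56.4 in free het replicate 4 and 51.8 in MYCN wild-type replicate 4. In the other ganglia it was at most 0.32 CPM. For Cdkn2c, the MYCN wild-type ganglia had 30.95, 16.1 and 12.4 TPM and those labelled het 6.41 and 14.4 TPM.

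Downstream of the kinases, E2f1 had the largest fold of the members. Its level was 38.1, 46.8, 45.8 and 49.3 TPM in tumors. Free wild-type ganglia had 6.44, 8.09, 3.56 and 3.80 TPM and free ganglia labelled het 4.17, 3.78 and 9.35 TPM. Groups did not overlap, and E2f1 was 10.8-fold higher in tumors (log2 fold change 3.43, SE 0.47, edgeR adjusted p = 2.94e-05). MYCN wild-type ganglia had 46.3, 6.08 and 22.1 TPM in replicates 1, 3 and 4, the same order as for Ccnd1 and Cdk4, and those labelled het had 5.77 and 13.52 TPM.

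Rb1, the gatekeeper that the kinases inactivate, was at 19.95, 12.5, 12.5 and 10.1 TPM in tumors and at 18.1 to 24.6 TPM in free ganglia. On the count scale the log2 fold change was −0.28 (SE 0.19, edgeR adjusted p = 0.205). Without tumor replicate 1, the tumor with the highest Rb1, it was −0.52 (edgeR adjusted p = 0.0157). The values of Rb1, Ccnd3, Cdkn1c and Cdkn1b depended on the fit, where the alternative below changes the test and the scale together. With limma on log2(TPM + 1) the median of all genes moved from −0.06 to −0.35 in this comparison, and these 3 members passed as lower, at −0.71 for Rb1, −0.73 for Ccnd3 and −1.17 for Cdkn1c. Cdkn1b still passed as higher, at 0.39 in place of 0.84 (limma adjusted p = 0.0024). Cdkn2c did not pass in that fit (0.84, limma adjusted p = 0.0896). In MYCN ganglia Rb1 was at 26.4, 18.7 and 22.5 TPM with wild-type Runx1t1 and at 28.2 and 28.5 TPM when labelled het. Rb1 overlaps Rcbtb2 and Lpar6 on the opposite strand.

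The balance within each family was compared as the share of each member in the summed TPM of its family, by exact two-sided permutation tests over libraries, with p adjusted over 21 tests of 7 shares in 3 comparisons. Of these tests, 7 passed. None passed in libraries over 20000000 counts alone or against wild-type free ganglia alone, and none when any 1 tumor or any 1 free ganglion other than wild-type replicate 1 was left out. The smallest p possible is then 0.0167 with 3 tumors and 0.00952 with 6 free ganglia, which leaves little room for a pass over 21 tests. The subsets by depth and by Runx1t1 label also hold fewer free ganglia, which raises the smallest possible p there as well. With a library left out, the difference between tumors and free ganglia was 22 to 28.7 percentage points for the share of Ccnd1 and 23.9 to 25.7 for that of Cdk4. Ccnd1 made up 93.2% ± 2.23 (SD, n = 4) of D-type cyclin TPM in tumors and 66.6% ± 14.3 (SD, n = 7) in free ganglia. The ranges were 90.0 to 95.2% and 39.3 to 79.7%, and the exact permutation p was 0.00606, the smallest possible with 4 against 7 (adjusted p = 0.0318). The lowest of these, 39.3%, was replicate 2 of the free wild-type ganglia, and the other 6 free ganglia were at 56.6 to 79.7%. Ccnd2 took 0.967% ± 0.571 (SD) of the tumor sum and 11.1% ± 9.15 (SD) in free ganglia, and Ccnd3 5.86% ± 2.05 (SD) and 22.3% ± 5.42 (SD), each with the same exact permutation p. The shares of a family make up a fixed whole, so the results of the D-type cyclins are not independent of each other. The adjustment counted them as separate tests. Ccnd3 itself did not pass (log2 fold change −0.35, edgeR adjusted p = 0.268).

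Cdk4 made up 99.3 to 99.6% of the summed TPM of Cdk4 and Cdk6 in tumors, against 68.9 to 79.9% in free ganglia (exact permutation adjusted p = 0.0318). The ratio of Cdk4 to Cdk6 was 141, 225, 163 and 279 in tumors and 2.21 to 3.98 in free ganglia. In MYCN wild-type ganglia it was 35.2, 2.99 and 10.7, and in those labelled het 2.68 and 5.25. The MYCN wild-type replicate 3 ganglion was thus within the range of free ganglia, while replicates 1 and 4 lay between free ganglia and tumors. Tumors also differed from all 5 MYCN ganglia in this share (72.8 to 97.2% in the ganglia, exact permutation adjusted p = 0.0476). Among the inhibitors the share of Cdkn1c was lower in tumors, 9.16% ± 4.68 (SD), than in free ganglia, 23.9% ± 8.44 (SD) (exact permutation adjusted p = 0.0476), and than in MYCN ganglia, 23.8% ± 3.14 (SD) (exact permutation adjusted p = 0.0476). The shares of Cdkn1b and Cdkn2c did not pass, nor did those of Ccnd1, Ccnd2 and Ccnd3 in tumors against MYCN ganglia (exact permutation adjusted p = 0.165, 0.125 and 0.165), nor any of the 7 shares between MYCN ganglia and free ganglia.

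**Figure D2:**
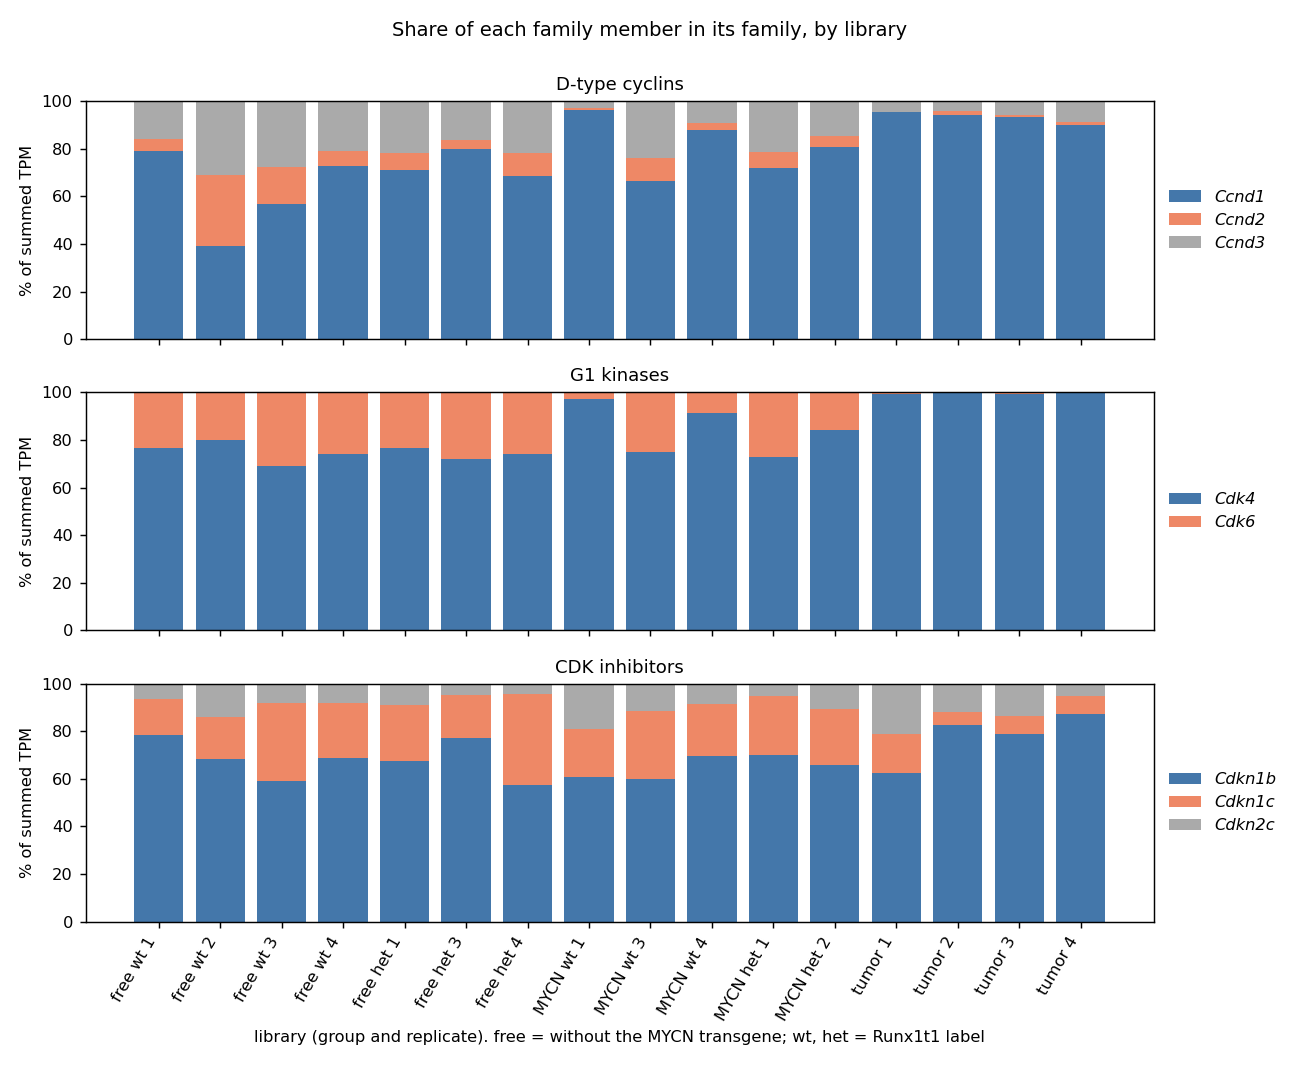
Share (% of summed TPM) of each D-type cyclin, each G1 kinase and each CDK inhibitor within its family, 1 bar per library. Cdk6 is hardly visible in the 4 tumors, where Cdk4 holds 99.3 to 99.6%, and Ccnd2 and Ccnd3 are widest in replicate 2 of the free wild-type ganglia.

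Tumors were also set against both groups of MYCN ganglia, which carry the same transgene. The 3 tumor comparisons share their 4 tumors, and the values are given side by side. Relative to MYCN wild-type ganglia 7 of 8 glial, 6 of 6 fibroblast and 6 of 10 sympathetic neuron markers were lower in tumors. For those labelled het it was 7 of 8, 6 of 6 and 7 of 10, with 5 of 6 adrenal cortex markers. Of all genes, 20.5% and 23.5% were lower. Higher were 1 chromaffin marker in the first comparison and 1 sympathetic neuron and 1 T lymphocyte marker in the second. Their part was not tested. Against MYCN wild-type ganglia 3 members passed, where 34.5% of all genes were called: Cdk4 at 1.44 (log2, SE 0.41, edgeR adjusted p = 0.0149), Cdkn1b at 0.63 (SE 0.14, edgeR adjusted p = 0.00316) and Cdk6 at −2.69 (SE 0.30, edgeR adjusted p = 3.15e-05). Ccnd1 (log2 fold change 0.66) and E2f1 (1.18) did not pass there, with edgeR adjusted p of 0.224 and 0.131. Without replicate 1 of the MYCN wild-type ganglia, both did, at 1.29 and 2.13 (edgeR adjusted p = 0.0182 and 0.0123). The Cdk4 call was lost without replicate 3 of these ganglia (1.06, edgeR adjusted p = 0.051) and also without replicate 4, or when the other groups were kept out of the model (edgeR adjusted p = 0.0503). With limma on TPM, Cdkn1b did not pass against either group of MYCN ganglia (0.24 and 0.31), and Cdkn1c (−1.41 and −1.32) and Rb1 (−0.70 and −1.03) passed as lower in tumors against both.

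Against MYCN ganglia labelled het 5 members passed, where 45.5% of all genes were called. Ccnd1 was at 1.75 (log2, SE 0.49, edgeR adjusted p = 0.0103), Cdk4 at 3.03 (SE 0.52, edgeR adjusted p = 0.000443), Cdkn1b at 0.81 (SE 0.16, edgeR adjusted p = 0.00101) and E2f1 at 2.70 (SE 0.74, edgeR adjusted p = 0.00909). Cdk6 was at −2.66 (SE 0.33, edgeR adjusted p = 3.68e-05). Both ganglia labelled het were sequenced at under 20000000 counts and every tumor above it. The Ccnd1 and E2f1 calls were lost without replicate 1 of these ganglia. The lone remaining ganglion is then assumed to vary like the other groups. With a library left out, the log2 fold change was 1.56 to 1.94 for Ccnd1 and 2.20 to 3.47 for E2f1.

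**Figure D3:**
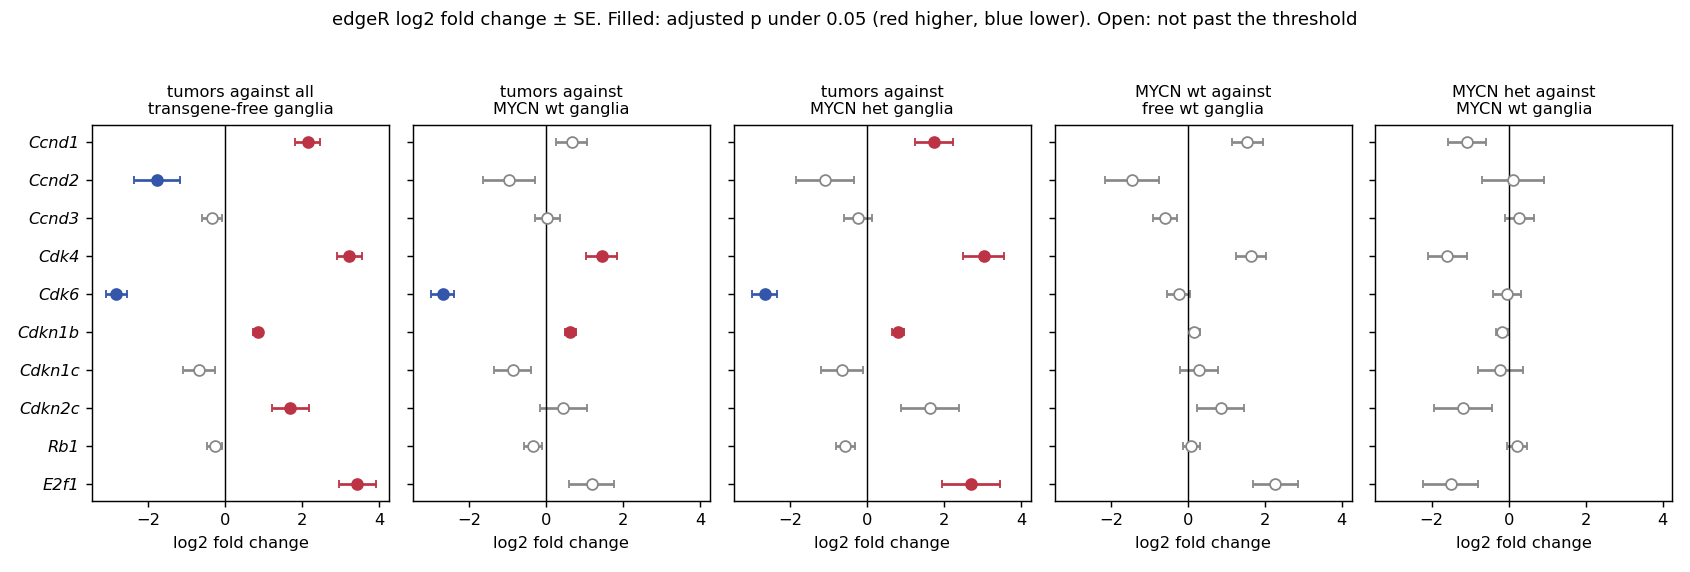
Log2 fold changes (edgeR, bars are SE) of the 10 members in 5 comparisons, filled where the adjusted p was under 0.05. Cdk6 lies near the same value in the 3 tumor comparisons, from −2.83 to −2.66, and no member is filled in the 2 comparisons between ganglion groups.

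Between ganglion groups no member passed the edgeR threshold. For MYCN wild-type against free wild-type ganglia, 0.936% of genes were called, and limma on TPM called none of the members. An unadjusted p under 0.05 was found for 3 members and for 3302 of the 16665 genes. Cdk4 was at 1.64 (log2, SE 0.39, edgeR adjusted p = 0.0599), Ccnd1 at 1.55 (SE 0.40, edgeR adjusted p = 0.0709) and E2f1 at 2.27 (SE 0.58, edgeR adjusted p = 0.0709), each higher in 2 of the 3 MYCN ganglia than in all 4 free wild-type ganglia. DESeq2 called these 3 members, where it called 7.71% of genes. The calls turn on single ganglia. Without replicate 3 of the MYCN wild-type ganglia edgeR called Ccnd1 (1.96), Cdk4 (2.02) and E2f1 (2.75), and without replicate 2 of the free wild-type ganglia Cdk4 (1.92) and E2f1 (2.57). Without replicate 1 of the MYCN wild-type ganglia the differences fell to 0.92 for Ccnd1, 1.02 for Cdk4 and 1.32 for E2f1 (edgeR adjusted p = 0.55, 0.473 and 0.565). Within libraries over 20000000 counts no member passed. Cdk6 was at −0.24 (SE 0.30, edgeR adjusted p = 0.691) and Cdkn1b at 0.17 (SE 0.13, edgeR adjusted p = 0.515).

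For MYCN ganglia labelled het against free ganglia labelled het, 0% of genes and 0 members passed with edgeR, none of the members by DESeq2 or limma, and 0 members and 242 genes had an unadjusted p under 0.05. Cdk4 and Ccnd1 were each at 0.33 and E2f1 at 0.72 (log2, SE 0.47, 0.47 and 0.68). Rb1 was at 28.2 and 28.5 TPM against 21.9 to 24.6 TPM, and Ccnd1 at 160 and 197 TPM against 126 to 157 TPM. On the count scale Rb1 was at 0.25 (log2, SE 0.27, edgeR adjusted p = 1). For MYCN ganglia labelled het against MYCN wild-type ganglia, 0.012% of genes and 0 members passed, and DESeq2 and limma called none of the members. Cdk4 (−1.59, SE 0.50, edgeR adjusted p = 0.3) and Ccnd1 (−1.09, SE 0.49, edgeR adjusted p = 0.39) had an unadjusted p under 0.05, as did 2094 of the 16665 genes. E2f1 was at −1.51 (SE 0.72, edgeR adjusted p = 0.404). Both ganglia labelled het lay within the span of the 3 wild-type ones for Ccnd1, and for Cdk4 one of them lay below and the other just above the lowest wild-type ganglion. Without replicate 3 of the MYCN wild-type ganglia, the Cdk4 difference passed (−1.97, edgeR adjusted p = 0.0403), whereas without replicate 1 it was −0.98 (edgeR adjusted p = 0.684), with −0.46 for Ccnd1 and −0.56 for E2f1. For free ganglia labelled het against free wild-type ganglia, 0% of genes and 0 members passed, by any of edgeR, DESeq2 or limma for the members, and 687 genes but no member had an unadjusted p under 0.05. The difference of the transgene effect between Runx1t1 labels was also tested: 0% of genes and 0 members passed with edgeR, 0 members by DESeq2 or limma, and 937 genes but no member had an unadjusted p under 0.05. It was −1.31 for Cdk4 (SE 0.62, edgeR adjusted p = 0.845), −1.23 for Ccnd1 (SE 0.63) and −1.56 for E2f1 (SE 0.91).

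Other genes of the same machinery were described from a list of 30. In tumors against free ganglia 20 of them were higher and 1 lower, with a median log2 fold change of 1.29 beside −0.06 over all genes tested, of which 30.6% were higher and 30.9% lower. Ccna2, the S-phase cyclin, was at 195 to 242 CPM in tumors and 2.81 to 30.1 CPM in free ganglia (log2 fold change 5.11, edgeR adjusted p = 2.11e-05). The late repressive E2F genes E2f8 (4.68) and E2f7 (4.13) rose, as did Cks1b (4.16) and Skp2 (3.48), whose products take part in the destruction of p27. Skp2 was at 25.8 to 62 CPM in tumors and at 3.14 to 6.94 CPM in free ganglia. The other end of the list was Cdkn1a, which encodes p21 and was the single gene that fell, by 1.73 on the log2 scale (edgeR adjusted p = 0.000117), from 20.2 to 45 CPM in free ganglia to at most 13.7 CPM in tumors. Cdkn2a, which encodes p16 and Arf, was near 0 in ganglia (0 to 1.3 CPM without the transgene) and uneven in tumors, from 0.337 to 14.1 CPM (edgeR adjusted p = 0.0041), and no fold is given from counts so low. The kinase Cdk2 was 2.82-fold higher, its partners Ccne1 at 1.63 and Ccne2 at 2.43 on the log2 scale, and the Rb relatives Rbl1 at 1.74 and Rbl2 at −0.45, the last not past the threshold (edgeR adjusted p = 0.0542).

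**Figure D4:**
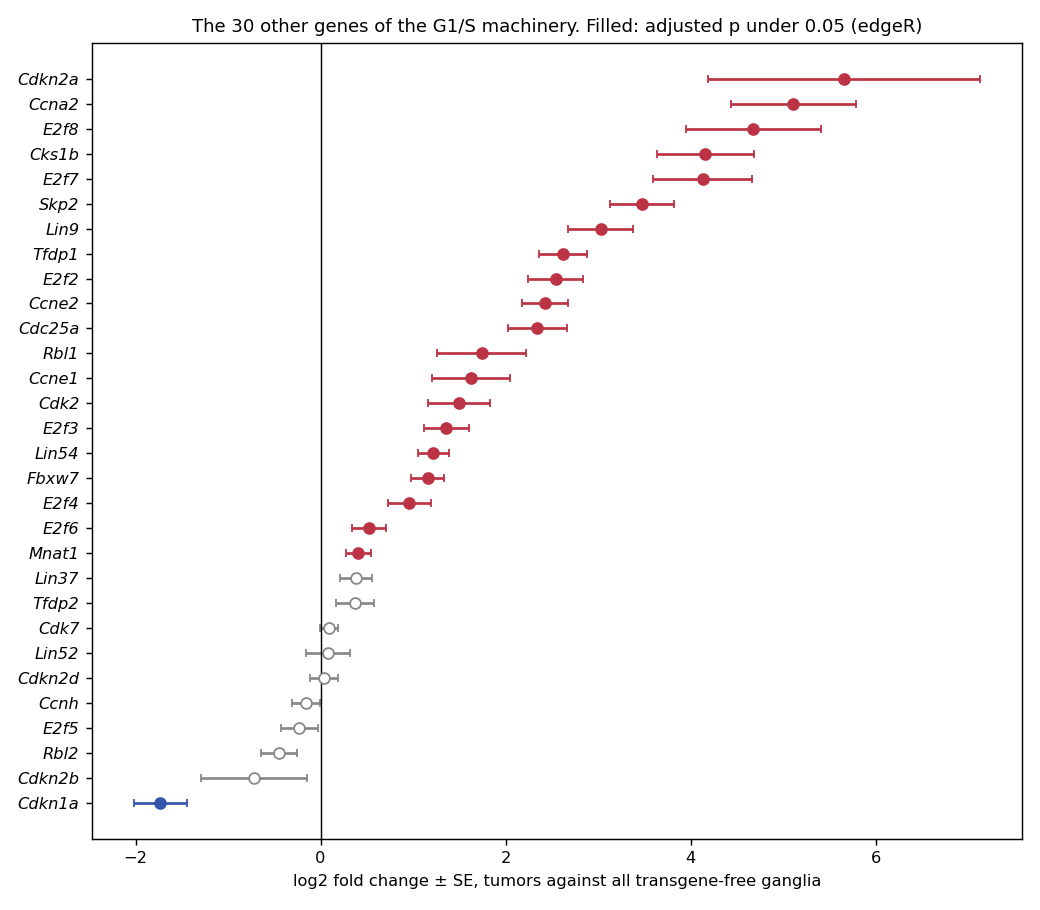
Log2 fold change (edgeR, bars are SE) of the 30 other G1/S genes in tumors against all free ganglia, ordered by size and filled where the adjusted p was under 0.05. Of the 30, 20 are higher, and Cdkn1a alone is lower past the threshold.

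Of these 30 genes, Ccne2 was the only one called between ganglion groups, at 1.43 in MYCN wild-type against free wild-type ganglia (SE 0.31, edgeR adjusted p = 0.0481), from 2.92 to 4.96 CPM in free wild-type ganglia to 4.92 to 14.7 CPM, where 0.936% of all genes were called. Against MYCN wild-type ganglia, tumors had 7 of the 30 higher and 1 lower (median log2 fold change 0.69), where 34.5% of all genes were called. Against MYCN ganglia labelled het 16 were higher and 1 lower (median 1.18), where 45.5% of all genes were called.

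Genes that E2F factors are known to switch on rose together in tumors. All 25 on the list were higher in tumors than in free ganglia, with a median of 3.99, led by Rrm2, a subunit of ribonucleotide reductase (log2 fold change 5.43), and Uhrf1, which serves DNA methylation after replication (32-fold). Against MYCN ganglia labelled het all 25 were higher as well (median 3.56), and against MYCN wild-type ganglia 7 of 25 (median 1.53). Of all genes, 30.6% were higher in tumors than in free ganglia, 22% than in MYCN ganglia labelled het and 14% than in MYCN wild-type ganglia. Of the 10 proliferation markers all were higher in tumors than in free ganglia (median 5.02), led by the mitotic genes Ccnb1 (6.26) and Plk1 (5.74), as were all 10 against MYCN ganglia labelled het (median 3.86) and 1 of 10 against MYCN wild-type ganglia (median 1.76). In MYCN wild-type against free wild-type ganglia none of the 25 or of the 10 passed, with medians of 2.00 and 2.69.

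Proliferation markers were set beside the members in each library. Their summed TPM was 1321 to 1657 in tumors. It was 1087, 82.3 and 530 in replicates 1, 3 and 4 of the MYCN wild-type ganglia and 54.7 and 219 in those labelled het. Free ganglia had 26.4 to 50.6 apart from replicate 2 of the wild-type ones, which had 249. That ganglion and replicate 2 of the MYCN ganglia labelled het thus had similar sums, and Cdk4 was similar in both (89.9 and 82.3 TPM). E2f1 was 8.09 TPM in the former and 13.52 TPM in the latter, and Ccnd1 89.4 and 197 TPM. The former also had the highest lymphocyte and myeloid marker sums of all libraries. Its sympathetic neuron sum (5590 TPM) was the lowest of all ganglia. The part of these cells in its proliferation markers was not tested. Cdk6 ran the other way among the MYCN wild-type ganglia, with 25.7, 16.7 and 8.31 TPM at 82.3, 530 and 1087 TPM of proliferation markers, and tumors had at most 2.51 TPM. The MYCN ganglia labelled het had 19.3 and 15.7 TPM of Cdk6 at 54.7 and 219 TPM. Replicate 2 of the free wild-type ganglia, at 249 TPM, had 22.6 TPM of Cdk6, within the 15.9 to 25.4 TPM of the other free ganglia. The ganglion with 1087 TPM of these markers had 26.4 TPM of Rb1, above all tumors. The part of dividing cells' share in the differences of Ccnd1, Cdk4 and E2f1 was not tested.

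**Figure D5:**
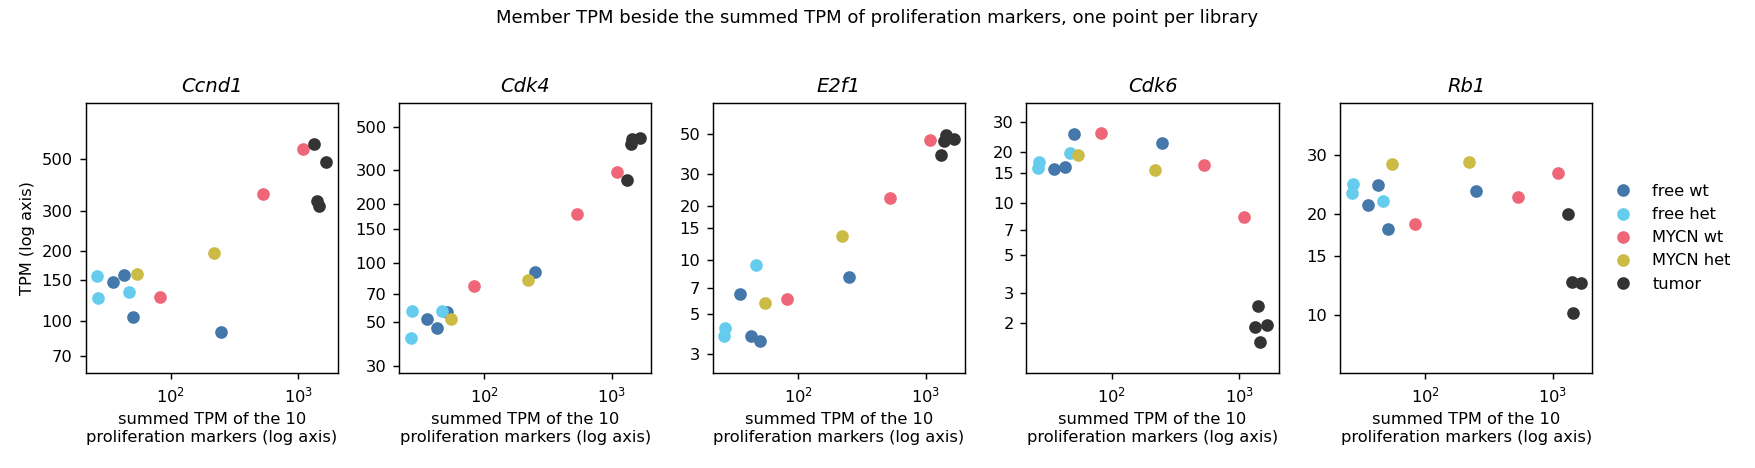
TPM of Ccnd1, Cdk4, E2f1, Cdk6 and Rb1 against the summed TPM of the 10 proliferation markers (both log axes), 1 point per library. Cdk4 and E2f1 are highest in the tumors and in 2 of the 3 MYCN wild-type ganglia, where the markers are also highest, whereas Cdk6 is low in the tumors and, at 8.31 TPM, in 1 MYCN wild-type ganglion.

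The genes whose levels followed each member most closely over the 16 libraries were listed by Pearson's r of log2(CPM + 1) among 14685 genes, as a description in which the tumor-ganglion split is shared by all pairs. For Cdk4 they were Psmc3ip, Nup205 and Lig1, each at 0.99, and for E2f1 Nmral1, Recql4 and Cdca8, each at 0.99. Cdk6 was closest to Prkcq (0.99), Ahr (0.98) and Rassf10 (0.98), and Ccnd1 to Zbtb10 (0.99), Cenpc1 (0.98) and Cbx5 (0.98). Ccnd2 was closest to Tgfbr2 (0.98), Nab2 (0.97) and Cnn2 (0.96), and Ccnd3 to Slc39a1 (0.92), Ltbp2 (0.91) and Bgn (0.90). Among the inhibitors, Cdkn1b was closest to Setd5, Uba2 and Sf3b2 (each 0.97), Cdkn1c to Appl2 (0.91), BC100451 (0.89) and Bnc2 (0.86), and Cdkn2c to Cebpg (0.94), Ccnt2 (0.92) and Zfp367 (0.92). Rb1 was closest to BC030336 (0.92), Epg5 (0.91) and Lemd3 (0.88).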

How the data were processed

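RNA-Seq libraries were made with a SMARTer Stranded Total RNA-seq kit, although the labels give polyA RNA. Per the labels, the authors used STAR, SAMtools and RSEM with mm10 (GRCm38) and deposited RSEM expected counts per gene, not normalised, and TPM, which RSEM scales per length within each library. The annotation and strand setting are not given in the sources used here. Column headers marked Hom were read as wild-type Runx1t1 by matching labels.

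Expected counts were rounded. R 4.3.3 with edgeR 4.0.16 (filterByExpr with a minimum count of 10, TMM, glmQLFit and glmQLFTest) fitted all 5 groups, with Benjamini-Hochberg adjustment over 16665 genes in each of 8 contrasts. DESeq2 1.42.0 and limma 3.58.1 on log2(TPM + 1) were alternatives, with other normalisations, filters, depth and sex terms, a replicate block and leaving out each library. Shares were tested exactly with SciPy 1.17.1. The fits and tests were checked on simulated data. Gene positions came from GENCODE vM21. Counting precision follows depth, 10692299 to 38618757 counts per library, and no 2 libraries of the same group were duplicates. Same-numbered free wild-type ganglia and tumors deviated together (r of 0.13 to 0.35 in 4 of 4 pairs), while over all 25 same-numbered pairs of groups the median r was −0.02. The labels name no shared origin, so the block was kept as an alternative.

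Members and gene lists were chosen with earlier results of these data known. All 10 members are named, as are the 6 largest changes each way among other G1/S genes that were called and averaged 1 TPM or more, any called between ganglion groups, the 2 largest E2F targets and proliferation markers, and the 3 closest genes by correlation. Cdk2, Ccne1, Rbl1 and Rbl2 were added after their values were seen.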

Additional observations from a re-analysis of the deposited data

Results flagged for a closer look

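Cdkn1c in tumor replicate 1 was at 29.9 CPM, while the other 3 tumors were at 8.05 to 9.15 CPM. The gap made up 0.949 of the range of the 4 tumors, which is beyond Dixon's limit for a group of 4. The members gave 20 such groups of 4, and chance marks about 1 in 20. The same tumor had the highest Cdkn2c, Rb1 and Ccnd1 of the 4, and its summed myeloid markers (264 TPM) were the lowest of the 4. Their part in this value was not tested.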

How the results depend on the processing

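No called member changed direction under any alternative, while some differences that did not pass changed sign, such as that of Cdk6 between both groups of MYCN ganglia. Of 890 values of members under other settings, 867 kept their side of the threshold, and of 1280 with a library left out 1258 did. The count of 7 members called in tumors against free ganglia was 6 to 7 when libraries were left out, without tumor replicate 1 with Cdkn1c and Rb1 in place of Ccnd2 and Cdkn2c. Against MYCN wild-type ganglia the 3 members became 5 in libraries over 20000000 counts and 2 to 5 with a library left out (5 without tumor replicate 1 or MYCN wild-type replicate 1). Against MYCN ganglia labelled het the 5 became 3 to 7. For MYCN wild-type against free wild-type ganglia the 0 became 3 with DESeq2, 2 with a depth term and 0 to 3 with a library left out. For MYCN ganglia labelled het against wild-type it was 0 to 1. The 7 shares became 0 in libraries over 20000000 counts, 0 with only wild-type free ganglia and 0 to 7 with a library left out, where fewer libraries also raise the smallest possible p (4 passed without any 1 MYCN ganglion). The difference in the Cdk4 share then stayed at 23.9 to 25.7 percentage points against free ganglia. A replicate block kept 7 members in tumors against free ganglia, 3 against MYCN wild-type ganglia, 6 (Cdkn2c added at 2.11) in place of 5 against those labelled het, and 0 elsewhere. The share tests used no pairing. The sex term was chosen after seeing the data.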
